A study of Homo sapiens with 11 samples.

Results

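MiRNA levels of A-549 cells, a line derived from lung cancer, were compared with those of ES-2 cells, a line derived from ovarian cancer. Both lines were parental, carried no siRNA, were grown in DMEM with FBS and were harvested 48 h after seeding. Each line was represented by 2 small RNA libraries, made from 50.0 ng of total RNA with the same NEXTflex kit. The comparison rested on 2588 mature miRNAs named in the tables, of which 365 reached a mean of 10 CPM (reads of a miRNA per 1000000 miRNA reads) in A-549, in ES-2 or in both and were compared. The threshold was reached by 306 miRNAs in A-549 and by 282 in ES-2. It was reached in both lines by 223, in A-549 only by 83 and in ES-2 only by 59. A further 624 miRNAs were detected below it, and 1599 had no read in any of the 4 libraries. Just inside the threshold were miR-181c-3p with mean levels of 10.2 CPM in A-549 and 3.05 CPM in ES-2 and miR-3187-3p with 1.66 and 10.3 CPM. Just outside were miR-4517 with 2.63 and 9.96 CPM and miR-24-1-5p with 9.91 and 0 CPM. The study profiled miRNAs in cancer cell lines to ask which of them could act on mRNAs bound by the RNA-binding protein IGF2BP1, and the lines compared here are 2 of its 6. Each is 1 line from 1 tumour and stands for itself, not for the tissue it came from.

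MiRNAs are short RNAs that are cut from hairpin precursors by the nucleases Drosha and Dicer. Either arm of a hairpin (5p or 3p) can be loaded into an Argonaute protein, which then binds mRNAs that pair with the seed, here bases 2 to 8 of the miRNA, and represses them. Many miRNAs are transcribed together from clusters, and related clusters arose by duplication, so that miRNAs with the same seed can come from loci that are regulated apart. A set of miRNAs is used as markers of cell identity, for instance miR-200 for epithelial and miR-142 for blood cells.

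The sequences below show the miRNAs on which the comparison turned, 5′ to 3′, with the seed in capitals. Mature sequences were found in RefSeq (GRCh38.p14) for 335 of the 365 miRNAs. The first set holds miRNAs that were far higher in A-549. Its first 4 members come from an imprinted cluster and have unlike seeds, and its last pair shares a seed.
miR-493-5p: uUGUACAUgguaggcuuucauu
miR-379-5p: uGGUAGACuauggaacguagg
miR-409-3p: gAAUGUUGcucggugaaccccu
miR-369-3p: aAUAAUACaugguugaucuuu
miR-200b-3p: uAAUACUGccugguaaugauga
miR-429: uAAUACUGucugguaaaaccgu

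The second set holds miRNAs that were far higher in ES-2. MiR-199a-3p and miR-199b-3p are identical in sequence, so reads of one cannot be told from reads of the other.
miR-199a-3p: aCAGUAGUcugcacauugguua
miR-199b-3p: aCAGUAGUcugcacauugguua
miR-155-5p: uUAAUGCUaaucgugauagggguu
miR-142-3p: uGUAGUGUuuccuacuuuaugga
miR-584-5p: uUAUGGUUugccugggacugag
miR-221-3p: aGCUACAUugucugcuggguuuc
miR-222-3p: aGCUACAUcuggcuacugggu

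The third set holds miRNAs with the same seed that come from different loci and differed unequally between both lines. Positions are counted from 1 at the 5′ end. MiR-100-5p and miR-99a-5p differ by A16U, whereas miR-99b-5p differs from miR-100-5p by A1C, U11A, A16C and U21C. Let-7a-5p and let-7c-5p differ by A19G, and let-7a-5p and let-7e-5p by U9G. MiR-27a-3p and miR-27b-3p differ by C19U, and the first 21 bases of miR-23a-3p and miR-23b-3p by U19A.
miR-100-5p: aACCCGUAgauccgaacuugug
miR-99a-5p: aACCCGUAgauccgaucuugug
miR-99b-5p: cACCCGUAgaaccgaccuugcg
let-7a-5p: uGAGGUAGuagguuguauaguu
let-7c-5p: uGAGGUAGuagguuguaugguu
let-7e-5p: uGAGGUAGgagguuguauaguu
miR-125a-5p: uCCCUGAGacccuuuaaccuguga
miR-125b-5p: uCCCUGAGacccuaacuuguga
miR-23a-3p: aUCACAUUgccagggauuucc
miR-23b-3p: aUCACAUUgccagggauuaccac
miR-27a-3p: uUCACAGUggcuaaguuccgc
miR-27b-3p: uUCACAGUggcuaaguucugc
How the study's alignment placed reads between such near-identical miRNAs is not given in the sources used here, and the levels of miRNAs that differ by 1 base are uncertain to that extent.

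The A-549 libraries held 2670030 and 2060669 miRNA reads and the ES-2 libraries 1663181 and 2294994, of which the 365 miRNAs took 99.9%. For a miRNA without reads up to 3 reads remain possible, or 1.12 and 1.46 CPM in the A-549 and 1.80 and 1.31 CPM in the ES-2 libraries, a limit that covers counting error only. Libraries of 1 line lay close together, with an SD on the log2 scale of 0.16 in A-549 and 0.12 in ES-2 for miRNAs whose mean was 100 CPM or more. The ES-2 libraries differed in their low counts. Among 28 miRNAs with a mean of at least 100 CPM in A-549 and less than 10 CPM in ES-2, 17 had no read in ES-2 library 1 but only 1 had none in library 2. Their summed level was 42.7 CPM (71 reads) in ES-2 library 1 and 107 CPM (245 reads) in library 2, against 9528 and 9404 CPM in the A-549 libraries. In the reverse set, 8 miRNAs with a mean of at least 100 CPM in ES-2 and less than 10 CPM in A-549, the A-549 libraries held 59 and 34 reads. What set ES-2 library 2 apart was not tested. Where leaving it or another library out ended the call of a miRNA named below, or moved a count of list members by over 1.5 times, this is stated beside the result.

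On the CPM scale 276 of the 365 miRNAs (75.6%) passed the test for a difference, 113 (31.0%) with higher levels in A-549 and 163 (44.7%) with higher levels in ES-2 (limma, Benjamini-Hochberg adjusted p over all 365). The libraries of both lines did not overlap for 325 miRNAs (89.0%), including each of the 276. Differences are given as log2(CPM + 1) of A-549 minus ES-2 with their standard error, so that positive values stand for higher levels in A-549, and they understate the change of miRNAs with few reads. Large differences were more frequent towards A-549, with many from a single imprinted region on chromosome 14. A log2 difference of over 5 was seen for 43 miRNAs higher in A-549 and for 14 higher in ES-2. One of over 3 was seen for 78 and 28, and the 78 include all 47 miRNAs compared from that region. One of over 1 was seen for 102 and 123, respectively. Some directions were fixed by the level threshold. A miRNA that reached it in A-549 only had the higher mean there by construction, and 76 of these 83 (91.6%) passed the test, as did 51 of the 59 (86.4%) that reached it in ES-2 only. Of the 223 that reached it in both lines, 37 (16.6%) were higher in A-549 and 112 (50.2%) in ES-2. For lists of miRNAs the counts below are therefore descriptions, to be read beside these shares. The other 89 miRNAs did not pass the test, although the libraries did not overlap for 49 of them. The p-values rest on the spread between the 2 libraries of a line, which the study describes as biological replicates. This spread was pooled over A-549, ES-2 and the melanoma line MV3. It was also drawn towards that of miRNAs of similar level (3 residual and 4.25 prior degrees of freedom).

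**Figure D1:**
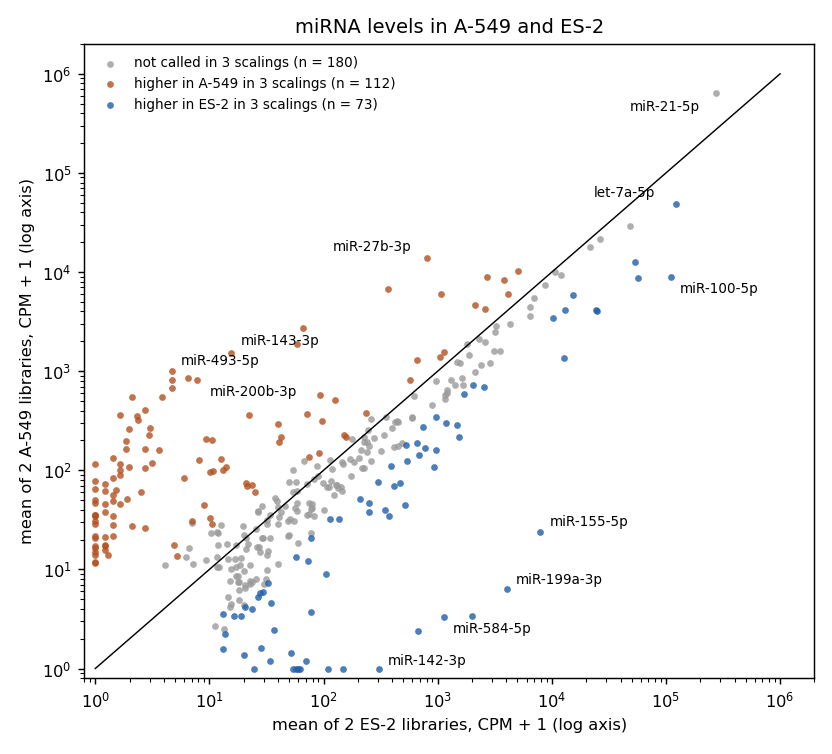
Mean levels of the 365 miRNAs in ES-2 (x axis) and A-549 (y axis), as CPM + 1 on log axes, with each point being 1 miRNA and the line marking equal levels. Orange and blue points are the 112 and 73 miRNAs called higher in A-549 or ES-2 under 3 scalings, and the orange points at the left edge reach 1006 CPM in A-549 with few or no reads in ES-2.

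The balance of these calls depended on the scaling, since a single miRNA took most of the A-549 reads. MiR-21-5p, which is transcribed with VMP1 and is among the most abundant miRNAs of many tumour cells, held 65.0% and 64.2% of the reads in A-549 and 28.2% and 27.0% in ES-2. All other miRNAs together accordingly held 35.0% and 35.8% in A-549 against 71.8% and 73.0% in ES-2. With TMM factors, which equalize most miRNAs between libraries, the median log2 difference was 0.15 instead of -0.36, which is a shift of 0.52. Scaling each library to its reads without miR-21-5p gave a median of 0.65, a shift of 1.03. A miRNA that was higher in ES-2 by less than these shifts on the CPM scale therefore had a positive difference on the other scales. With TMM factors 134 miRNAs were higher in A-549 and 104 in ES-2, and without miR-21-5p in the total 184 and 73 of 364. The share of calls that were higher in A-549 was 40.9% on the CPM scale, 56.3% with TMM factors and 71.6% without miR-21-5p. Called in the same direction under these 3 scalings were 185 miRNAs (50.7%), 112 (30.7%) higher in A-549 and 73 (20.0%) higher in ES-2, and miR-21-5p itself cannot be among them. Below, a direction that changed with the scaling is given as such.

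**Figure D2:**
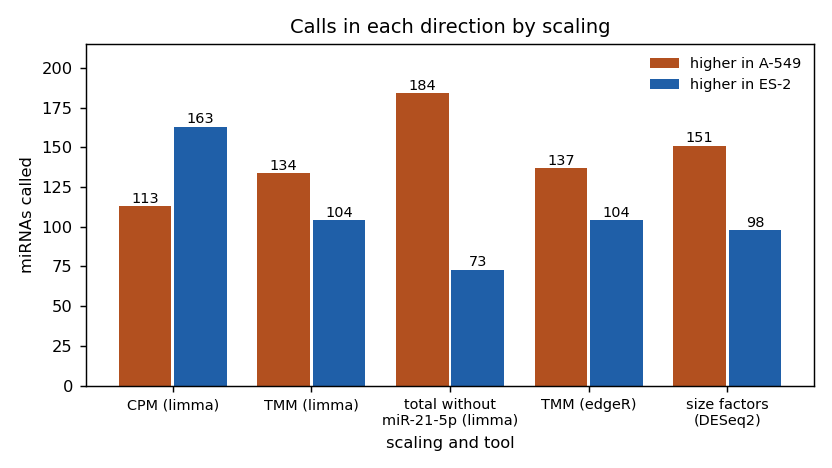
Number of miRNAs called higher in A-549 (orange) or in ES-2 (blue) under 5 combinations of scaling and tool, with bars starting at 0. Calls higher in ES-2 outnumber those higher in A-549 on CPM only (163 against 113), and the order is the reverse under the other 4.

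The most abundant miRNAs were largely shared, with 6 of the top 10 of each line being the same. The top 10 held 81.9% of the reads in each A-549 library and 76.8% and 76.5% in the ES-2 libraries. MiR-21-5p was first in both lines and had a log2 difference of 1.23 ± 0.06 on the CPM scale (adjusted p 2.03e-06). Let-7a-5p, the most abundant member of a family known for repressing growth-promoting mRNAs, was second in both. It was measured at 44945 and 51642 CPM in A-549 and at 119422 and 127669 CPM in ES-2 and was higher in ES-2 under 3 scalings (-1.36 ± 0.09, adjusted p 5.35e-06). MiR-30a-5p, let-7i-5p and let-7f-5p, also abundant in both lines, were higher in ES-2 on the CPM scale (-0.72, -0.32 and -0.28), but without miR-21-5p in the total they were higher in A-549 (0.31, 0.71 and 0.75). The same held for miR-30d-5p, the tenth of A-549, with -0.36 and 0.67. With TMM factors none of these 4 passed the test. The call of let-7f-5p on the CPM scale was also lost without A-549 library 1 (-0.16, adjusted p 0.134) and without ES-2 library 1 or 2 (adjusted p 0.122 and 0.163, limma). MiR-92a-3p of the oncogenic miR-17-92 cluster was measured at 12901 and 12603 CPM in A-549 and at 52513 and 53543 CPM in ES-2 (-2.06 ± 0.06), and it was higher in ES-2 under 3 scalings. Of the top miRNAs that were not shared, miR-27b-3p and let-7e-5p were higher in A-549, and miR-100-5p, miR-222-3p, miR-29a-3p and miR-221-3p were higher in ES-2, each under 3 scalings.

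The largest differences towards A-549 came from an imprinted region on chromosome 14. It is expressed from the maternal chromosome in embryonic tissue and placenta and holds one of the largest miRNA clusters of the human genome. All 10 miRNAs with the largest log2 difference among those with at least 100 CPM in A-549 were encoded there. MiR-493-5p, from an intron of MIR493HG (chr14:100869060-100869148, plus strand, GRCh38), was measured at 957 and 1055 CPM in A-549 and at 0 and 7.41 CPM in ES-2 (8.44 ± 0.94, adjusted p 9.62e-05). MiR-379-5p from an intron of MEG8 (chr14:101022066-101022132) followed with 536 and 557 CPM and 0 and 2.18 CPM (8.26 ± 0.60, adjusted p 9.24e-06). MiR-409-3p from an intron of MEG9 (chr14:101065300-101065378) had 760.3 and 851 CPM and 0 and 7.41 CPM (8.12 ± 0.92, adjusted p 0.000103). The A-549 libraries were thus close to each other, and the ES-2 values rested on 0 reads in library 1 and 17, 5 and 17 reads in library 2. MiR-369-3p was the only 1 of these 10 with more than 1 read in both ES-2 libraries, with 838 and 883 CPM in A-549 and 4.81 and 6.10 CPM in ES-2 (7.07 ± 0.27, adjusted p 4.6e-07). The other 6 were miR-127-3p, miR-487b-3p, miR-543, miR-494-3p, miR-654-3p and miR-382-5p, with log2 differences from 7.17 to 7.89.

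Of 89 miRNAs listed for this region 8 had no read in any of the 4 libraries. Each of the other 81 had a positive difference, and in a fit without the level filter 55 of the 81 were called higher in A-549, against 120 of all 989 detected miRNAs (12.1%). The level threshold was reached by 47, all of them through A-549 only, which fixed their direction. Each of the 47 passed the test under 3 scalings. Their median log2 difference was 5.82, or 5.67 with miRNAs without reads in ES-2 set to the bound that 3 reads allow. The median over all 83 miRNAs that reached the threshold in A-549 only, which include these 47, was 4.95. The lowest log2 difference of the 47 was 3.47 and the highest 8.44. Together the listed miRNAs reached 8749 and 8596 CPM in A-549 and 6.61 and 81.9 CPM in ES-2, so that the sum in ES-2 differed between the libraries as described above. Without ES-2 library 2, 46 of the 47 passed the test, and the log2 differences of miR-493-5p, miR-409-3p and miR-379-5p rose to 9.97, 9.65 and 9.10. Most of the hairpins fall into 2 groups with gaps of less than 10 kb. The group from MIR379 to MIR656 (chr14:101022066-101066801) held 35 of the miRNAs compared with a median of 5.85, and that from MIR493 to MIR136 (chr14:100869060-100884783) held 9 with a median of 5.13. The other 3 of the 47, miR-370-3p, miR-381-3p and miR-432-5p, were assigned to neither group, since their hairpins were not among those used to form the groups. Whether they lie within them was therefore not determined. MiR-376c-3p had no read in ES-2 and 115 ± 15.5 CPM (SD, n = 2) in A-549, which is at least 74.1-fold higher.

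**Figure D3:**
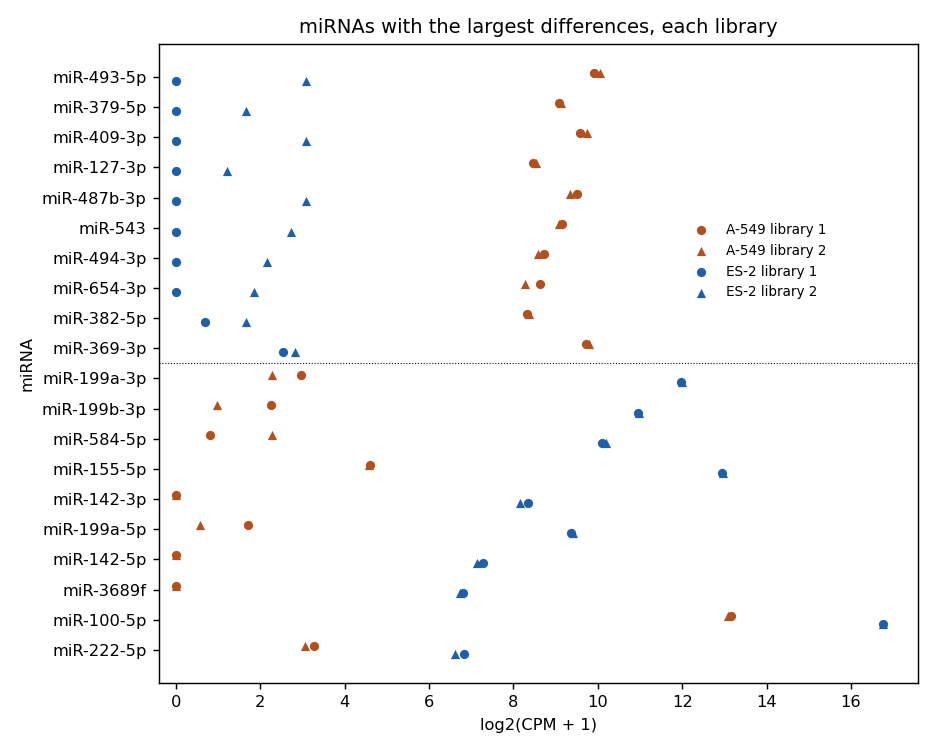
Level of the 20 miRNAs with the largest differences in each of the 4 libraries as log2(CPM + 1), with circles for library 1 and triangles for library 2 of A-549 (orange) and ES-2 (blue). The 10 above the dotted line are encoded on chromosome 14 and are at 0 in ES-2 library 1 except miR-382-5p and miR-369-3p, whereas the 10 below it are close together within ES-2.

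The largest differences towards ES-2 came from several loci and in part from miRNAs known as markers of other cell types. MiR-199a-3p, common in fibroblasts and other mesenchymal cells, was measured at 6.74 and 3.88 CPM in A-549 and at 4039 and 4071 CPM in ES-2 (-9.37 ± 0.20, adjusted p 2.32e-08). MiR-199b-3p had 3.75 and 0.971 CPM in A-549 and 1982 and 2004 CPM in ES-2 (-9.35 ± 0.35). Their sequence is the same, and the values do not show which of the 3 hairpins was active. The 5p arms differ in sequence. Of these, miR-199a-5p (hairpins on chromosomes 1 and 19) had 2.25 and 0.485 CPM in A-549 and 659 and 679.7 CPM in ES-2. MiR-199b-5p (chr9:128244721-128244830) had no read in A-549 and 40.3 and 65.4 CPM in ES-2, which is at least 41.0-fold higher. Both arms of the 199 family were thus detected at high levels in ES-2 only. MiR-214-3p, which is transcribed with MIR199A2 as part of DNM3OS, was by contrast at most 2.91 CPM in the 4 libraries.

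MiR-155-5p and miR-142 are best known from blood cells, in which miR-155 regulates activation and miR-142 is abundant in all lineages. MiR-155-5p was measured at 23.2 and 22.8 CPM in A-549 and at 7812 and 8043 CPM in ES-2 (-8.37 ± 0.14, adjusted p 1.61e-08). MiR-142-3p (chr17:58331232-58331318, in an exon of MIR142HG) had no read in A-549 and 326 and 286 CPM in ES-2, which is at least 237-fold higher. MiR-142-5p from the other arm had no read in A-549 and 153 and 140.3 CPM in ES-2 (at least 114-fold). Other blood markers did not go along. MiR-223-3p, miR-150-5p and miR-451a had at most 1.20 CPM in each of the 4 libraries, and the erythroid miR-486-5p was higher in A-549, with 218 and 186 CPM against 5.41 and 13.5 CPM (4.39 ± 0.39). Of the 5 blood-associated miRNAs that passed the level filter, of 13 listed, 3 were higher in ES-2 and 2 in A-549, with the same numbers under 3 scalings. Except for miR-155-5p, each had reached the threshold in 1 line only.

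MiR-584-5p from an intron of SH3TC2 (chr5:149062313-149062409, minus strand) had 0.749 and 3.88 CPM in A-549 and 1091 and 1167 CPM in ES-2 (-8.59 ± 0.42, adjusted p 1.63e-06). The primate-specific miR-3689 family on chromosome 9 was found in ES-2 only. MiR-3689f had 110.0 and 105 CPM there and no read in A-549 (at least 83.5-fold), and miR-3689a-5p, miR-3689b-5p and miR-3689e, also without reads in A-549, were at least 43.8-fold to 47.1-fold higher in ES-2. These 4 miRNAs share the seed GUGAUAU and reads can be split among them, but their seed group as a whole was at 285 and 282 CPM in ES-2. MiR-105-5p and miR-767-5p, which lie in an intron of GABRA3 on the X chromosome (chrX:152392219-152394492), were low in absolute terms. MiR-105-5p had 0.749 and 0 CPM in A-549 and 18.0 and 20.5 CPM in ES-2 (-3.93 ± 0.45). MiR-767-5p had 0.749 and 0.485 CPM in A-549 and 41.5 and 13.1 CPM in ES-2 (-3.92 ± 0.56), so that both were higher in ES-2 in each library. MiR-708-5p had 0.375 and 0 CPM and 75.8 and 62.3 CPM (-5.89 ± 0.35), and miR-625-3p 33.7 and 33.5 CPM and 363 and 379 CPM (-3.43 ± 0.18). These last 2 were chosen after their values were seen. MiR-105-5p, miR-767-5p, miR-3689a-5p, miR-3689b-5p and miR-3689e were also named outside the rules given below.

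Of the epithelial miRNAs, those of 1 locus on chromosome 1, which encodes miR-200b, miR-200a and miR-429, were higher in A-549. Of 16 listed, 7 passed the level filter. The 5 from this locus were higher in A-549 under 3 scalings, and they had reached the threshold in A-549 only, which fixed their direction. MiR-200b-3p, which represses the ZEB transcription factors, was measured at 794 and 833 CPM in A-549 and at 7.82 and 5.66 CPM in ES-2 (6.73 ± 0.34, adjusted p 2.01e-06). MiR-429 from the same cluster (chr1:1167104-1169087) had 76.8 and 49.0 CPM and 0.601 and 0.436 CPM (5.36 ± 0.74), and miR-200a-3p had 71.9 and 80.6 CPM in A-549 and no read in ES-2 (at least 49.0-fold). The second miR-200 cluster showed no such difference. MiR-200c-3p had 34.1 and 61.6 CPM in A-549 and 39.7 and 36.6 CPM in ES-2 (0.26 ± 0.45, adjusted p 0.612), an error too large to give a direction, and miR-141-3p did not exceed 4.79 CPM. MiR-205-5p and miR-203a-3p, markers of squamous epithelium, were at most 5.66 CPM in each library. MiR-375 had 37.1 and 46.1 CPM in A-549 but 3.61 and 73.6 CPM in the ES-2 libraries (6 and 169 reads), so the groups overlapped.

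Mesenchymal miRNAs were divided between both lines. Of 10 listed, 7 passed the level filter, with 4 of the 199 family higher in ES-2 and the 3 others higher in A-549 under 3 scalings. Except for miR-143-3p, each had reached the threshold only in the line in which it was higher. The latter were miR-143-3p, miR-145-5p and miR-145-3p, which come from 1 cluster (chr5:149428918-149430733) hosted by CARMN and are typical of smooth muscle. MiR-143-3p was measured at 1525 and 1553 CPM in A-549 and at 7.82 and 21.4 CPM in ES-2 (6.78 ± 0.37, adjusted p 2.37e-06). MiR-145-5p had 11.6 and 18.9 CPM in A-549 and no read in ES-2, which is at least 9.82-fold higher. No muscle miRNA of 12 listed passed the level filter. Of the liver miRNAs, miR-122-5p passed through ES-2 only, with 4.49 and 1.94 CPM in A-549 and 3.61 and 24.8 CPM in ES-2, where the libraries lay far apart, and it was called higher in ES-2 without ES-2 library 1 only. The neuronal miR-124-3p was at most 0.485 CPM, whereas of 7 neuronal miRNAs that passed the level filter, of 16 listed, 5 were higher in ES-2 on the CPM scale but only 2 under 3 scalings, among them miR-218-5p (-1.55 ± 0.10). Of the 5, 2 had reached the threshold in ES-2 only, as had 1 of the 2 under 3 scalings. The embryonic miR-371 to miR-373 cluster had no read in the 4 libraries. The lists hold no miRNA that defines lung or ovary, and the tissue labels could not be checked further.

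**Figure D4:**
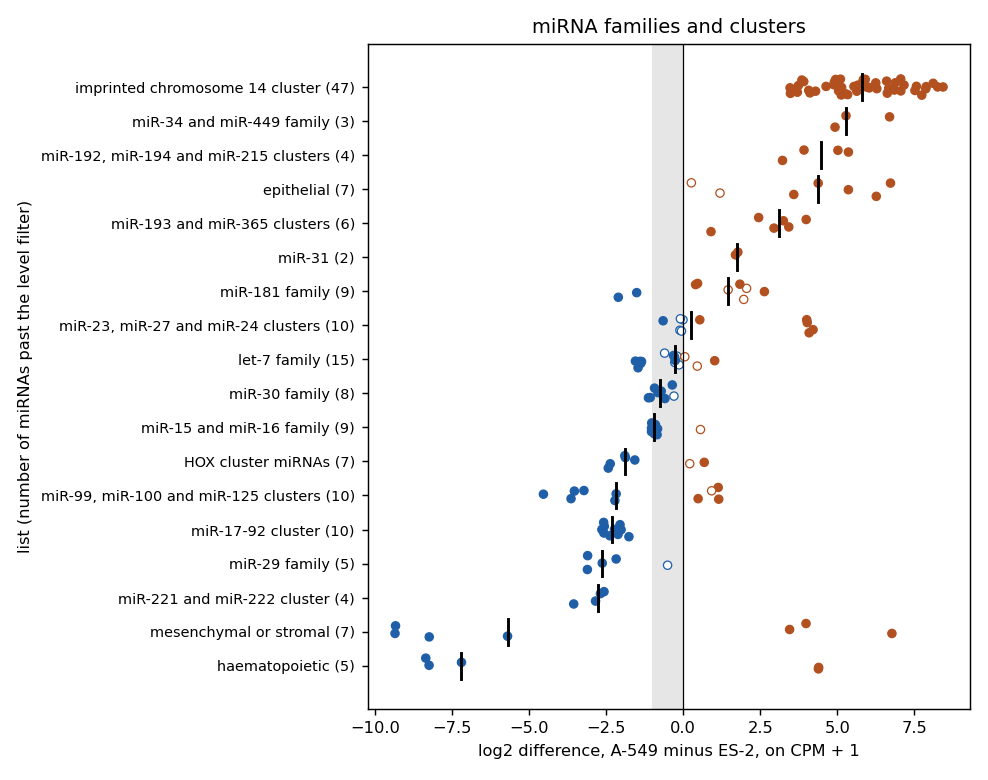
Log2 differences (A-549 minus ES-2, on CPM + 1) of the miRNAs of 18 lists, with the number of miRNAs per list in parentheses. Filled points passed the test on the CPM scale, open points did not, black bars are medians, and in the grey band the direction changes when miR-21-5p is left out of the total.

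Several smaller clusters were also higher in A-549 as a whole. The miR-192, miR-194 and miR-215 clusters, known from gut, liver and kidney epithelium, had 4 of 4 miRNAs higher under 3 scalings (median 4.47), of which 2 had reached the level threshold in A-549 only. MiR-192-5p was measured at 2874 and 2585 CPM in A-549 and at 65.5 and 64.9 CPM in ES-2 (5.36 ± 0.16), and miR-194-5p at 1883 and 1899 CPM and 63.1 and 51.9 CPM (5.02 ± 0.15). Of the p53-induced miR-34 family 3 miRNAs were compared and were higher in A-549. All 3 had reached the level threshold in A-549 only, so that the direction of the 3 was fixed. MiR-34a-5p (chr1:9151668-9151777) had 265 and 268 CPM in A-549 and 3.61 and 0.436 CPM in ES-2 (6.70 ± 0.57, adjusted p 2.22e-05), and miR-34c-5p had 145 and 91.7 CPM and 1.20 and 3.05 CPM (5.29 ± 0.40). The ES-2 values of both rested on 1 to 7 reads per library. The related miR-449 was not among the miRNAs compared. The miR-193 and miR-365 clusters had 6 of 6 miRNAs higher in A-549 (median 3.10), of which 3 had reached the threshold in A-549 only, with miR-193b-3p at 148 and 105 CPM against 8.42 and 5.66 CPM (3.99 ± 0.40). MiR-31-5p, often lost together with CDKN2A, was higher in A-549 with 9286 and 8418 CPM against 2750.2 and 2709.8 CPM (1.70 ± 0.09), and miR-31-3p was likewise higher, but its call was lost without ES-2 library 2 and without either A-549 library. MiR-224-5p and miR-452-5p from GABRE on the X chromosome were chosen after their values were seen. The former had 5782 and 6189.7 CPM in A-549 and 1013 and 1143 CPM in ES-2 (2.47 ± 0.26), and the latter 491 and 537 CPM and 118 and 132 CPM (2.03 ± 0.29).

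Clusters higher in ES-2 as a whole included known promoters of proliferation. The miR-17-92 cluster on chromosome 13, a target of MYC, had 10 of 10 miRNAs higher in ES-2 on the CPM scale and 9 of 10 under 3 scalings (median -2.31). Of the 10, 2 had reached the level threshold in ES-2 only, which fixed their direction. All 8 that reached it in both lines were higher in ES-2 on the CPM scale, and 7 were under 3 scalings. Over all 223 such miRNAs these numbers were 112 and 41. Summed over the cluster, the level was 13538 ± 212 CPM in A-549 and 57217 ± 576 CPM in ES-2 (SD, n = 2 each), most of which was miR-92a-3p, which also has a hairpin on the X chromosome. MiR-17-5p had 172 and 148 CPM in A-549 and 1011 and 915 CPM in ES-2 (-2.59 ± 0.12), and miR-20a-5p had 273 and 295 CPM and 1506 and 1468 CPM (-2.39 ± 0.09). The related miR-106b-25 cluster in an intron of MCM7 did not follow this pattern. Of 7 miRNAs of this and the miR-106a-363 cluster, 6 were higher in ES-2 on the CPM scale, but none was under 3 scalings, with 3 of the 6 lost without A-549 library 1 or ES-2 library 1. MiR-93-5p, for example, was at -0.55 on the CPM scale, -0.02 with TMM factors and 0.48 without miR-21-5p. Of the 6, 1 (miR-106a-5p) had reached the level threshold in ES-2 only.

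MiR-221 and miR-222, which repress the cell cycle inhibitor p27, had 4 of 4 miRNAs higher in ES-2 under 3 scalings (median -2.77). Of the 4, 1 (miR-222-5p) had reached the level threshold in ES-2 only. MiR-222-3p was measured at 8603 and 8863 CPM in A-549 and at 55432 and 57520.4 CPM in ES-2 (-2.69 ± 0.06), and miR-221-3p at 4146 and 4103 CPM and 24330.5 and 24876 CPM (-2.58 ± 0.09). MiR-222-5p, the minor arm, was among the 10 with the largest differences, with 8.61 and 7.28 CPM in A-549 and 112 and 97.2 CPM in ES-2 (-3.56 ± 0.29). The miR-29 family, which targets collagen mRNAs, had 4 of 5 miRNAs higher in ES-2 (median -2.63), of which 1 had reached the threshold in ES-2 only. MiR-29a-3p had 4321 and 3764 CPM in A-549 and 25637 and 24430.1 CPM in ES-2 (-2.63 ± 0.08) and lies in a cluster on chromosome 7, whereas miR-29c-3p from chromosome 1 had 19.1 and 19.9 CPM and 26.5 and 30.1 CPM and did not pass the test (-0.51 ± 0.36, adjusted p 0.224). MiRNAs of the HOX gene clusters were mostly higher in ES-2, with 5 of 7 under 3 scalings, 1 of which had reached the threshold in ES-2 only. MiR-10a-5p had 3352 and 3584 CPM against 10271 and 10397 CPM (-1.58 ± 0.07) and miR-10b-5p 656 and 736 CPM against 2531 and 2593 CPM (-1.88 ± 0.08), while miR-196a-5p from the same clusters was higher in A-549 (0.68 ± 0.16), a call lost without either A-549 library or ES-2 library 1.

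For other families the direction rested on the scaling. Of 8 miR-30 miRNAs 7 were higher in ES-2 on the CPM scale (median -0.77), none under 3 scalings. The miR-15 and miR-16 family had 8 of 9 higher in ES-2 on the CPM scale (median -0.95) and also none under 3 scalings, as for miR-16-5p with -0.98 on the CPM scale and 0.05 without miR-21-5p. In the let-7 family, 8 of 15 miRNAs were higher in ES-2 on the CPM scale and 4 of 15 under 3 scalings, while let-7e-5p was higher in A-549 (median -0.28). These shares are near those over all 365 miRNAs (44.7% and 20.0%). The miR-26 and miR-101, miR-191 and miR-425, miR-103 to miR-378, and miR-130 to miR-454 lists had 4 of 4, 4 of 4, 4 of 4 and 5 of 7 miRNAs higher in ES-2 on the CPM scale, and 1 each under 3 scalings. In each of these lists, 1 of the calls on the CPM scale was of a miRNA that had reached the level threshold in ES-2 only. The 5 of the last list fell to 2 without ES-2 library 2 or A-549 library 2 and to 3 without ES-2 library 1. For miR-148 and miR-152 the counts on the CPM scale and under 3 scalings were 2 of 3 and none, for miR-146 2 of 2 and 1, and for miR-28, miR-151 and miR-708 4 of 6 and 2. The latter 2, both arms of miR-708, had reached the threshold in ES-2 only, which fixed their direction. Of the 4 in that list that reached it in both lines, none was called under 3 scalings. On the CPM scale, 1 of the miR-148 and miR-152 calls was lost without ES-2 library 1, and miR-146b-5p without ES-2 library 2. Of the miRNAs discussed in the study, 1 list held both arms of miR-186, miR-340, miR-27b, miR-93 and miR-30a. Let-7 and further miR-30 miRNAs, also discussed there, are in lists of their own. The study had kept miRNAs by their level in its lines, with these samples among them. Of 9 compared from the list, 2 were higher in A-549 and 5 in ES-2 on the CPM scale, beside 31.0% and 44.7% over all miRNAs. The 5 fell to 3 without ES-2 library 2, with miR-340-5p and miR-93-5p being lost. MiR-340-5p was also lost without A-549 library 2 or ES-2 library 1, and miR-93-5p without A-549 library 1. Of these, miR-186-5p (-1.97 ± 0.09) was higher in ES-2 and both arms of miR-27b were higher in A-549 under 3 scalings, whereas the differences of miR-340-5p, miR-93-5p and both arms of miR-30a changed sign without miR-21-5p. Besides miR-23a-3p and miR-27a-3p, the smallest differences among miRNAs with at least 1000 CPM in both lines were those of miR-183-5p (0.08 ± 0.08), miR-320a (-0.20 ± 0.13) and let-7b-5p (-0.21 ± 0.14) on the CPM scale. With TMM factors these were 0.61, 0.33 and 0.32, and the first of them then passed the test. The miR-183 cluster, active in sensory epithelium and many carcinomas, had 1 of 4 higher in A-549 (miR-182-5p, 0.71 ± 0.10), and of miR-320 and miR-484 1 of 5 was higher in each line, the one in A-549 (miR-320b, 0.72 ± 0.18) under 3 scalings. Without A-549 library 2, miR-320a also passed the test as higher in ES-2 (-0.42).

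Related clusters that carry the same seeds at different loci differed in opposite directions. MiR-99b-5p, let-7e-5p and miR-125a-5p lie together on chromosome 19 (chr19:51692612-51693339, within SPACA6), and each was higher in A-549. Their relatives on chromosome 21 (miR-99a-5p and let-7c-5p, chr21:16539089-16539911, in MIR99AHG) and on chromosome 11 (miR-100-5p and let-7a-2-3p, chr11:122146522-122152308, in MIR100HG) were each higher in ES-2. MiR-99b-5p was measured at 4961 and 4419 CPM in A-549 and at 2131 and 2086 CPM in ES-2 (1.15 ± 0.08). MiR-100-5p, one of the 10 most abundant miRNAs of ES-2, had 9069.6 and 8668 CPM in A-549 and 111540.5 and 110750.2 CPM in ES-2 (-3.65 ± 0.08), and miR-99a-5p had 163 and 170.3 CPM and 799 and 762 CPM (-2.22 ± 0.12). Since a ratio of 2 miRNAs in 1 library does not depend on the scaling, it shows the contrast directly. There were 1.83 and 1.96 reads of miR-100-5p per read of miR-99b-5p in the A-549 libraries and 52.3 and 53.1 in the ES-2 libraries.

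The same contrast was seen for miR-125. MiR-125a-5p had 8477 and 8084 CPM in A-549 and 3810.2 and 3734 CPM in ES-2 (1.13 ± 0.06), and miR-125b-5p had 1353 and 1383 CPM and 13239.7 and 12424 CPM (-3.23 ± 0.08). Accordingly, there were 6.26 and 5.85 reads of miR-125a-5p per read of miR-125b-5p in A-549 and 0.288 and 0.301 in ES-2, so that miR-125a-5p led in A-549 and miR-125b-5p in ES-2. MiR-125b-5p comes from 2 hairpins, whose 3p arms differ in sequence. Both miR-125b-1-3p from chromosome 11 (-3.54 ± 0.19) and miR-125b-2-3p from chromosome 21 (-2.18 ± 0.37) were higher in ES-2. Let-7e-5p had 9425 and 11039 CPM in A-549 and 4704 and 5379 CPM in ES-2 (1.02 ± 0.10) against 499 and 675 CPM and 1678 and 1738 CPM of let-7c-5p (-1.56 ± 0.14). Let-7e-5p exceeded let-7c-5p 18.9-fold and 16.4-fold in A-549 and 2.80-fold and 3.10-fold in ES-2.

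A second example was provided by the miR-23, miR-27 and miR-24 clusters, which act in blood vessels and in fat and muscle differentiation. The cluster in an intron of AOPEP on chromosome 9 (chr9:95085208-95086088) was higher in A-549, and that on chromosome 19 (chr19:13836287-13836659, MIR23AHG) was not. MiR-27b-3p had 14411 and 13055 CPM in A-549 and 771 and 843 CPM in ES-2 (4.09 ± 0.08, adjusted p 1.73e-08), and miR-23b-3p had 7036 and 6575 CPM and 356 and 375 CPM (4.22 ± 0.08). From chromosome 19, miR-27a-3p had 2401 and 1851 CPM and 2377 and 2181 CPM (-0.11 ± 0.13, adjusted p 0.468), and miR-23a-3p had 10295 and 9614 CPM and 10462 and 10790.0 CPM (-0.09 ± 0.07, adjusted p 0.245). The libraries of the former pair were thus far apart, while miR-27a-3p overlapped between both lines and with TMM factors the latter pair moved to 0.42 (adjusted p 0.0608) and 0.44 (adjusted p 0.0159). The ratio of miR-27a-3p to miR-27b-3p was 0.167 and 0.142 in A-549 and 3.08 and 2.59 in ES-2, so that the predominant relative was a different one in each line. For miR-23b-3p to miR-23a-3p the ratio was 0.683 and 0.684 in A-549 and 0.0340 and 0.0347 in ES-2, with miR-23a-3p leading in both. Of the 10 miRNAs of both clusters 5 were higher in A-549, under 3 scalings, and 1 (miR-27a-5p) was higher in ES-2 on the CPM scale only, and not without A-549 library 2 or ES-2 library 1.

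**Figure D5:**
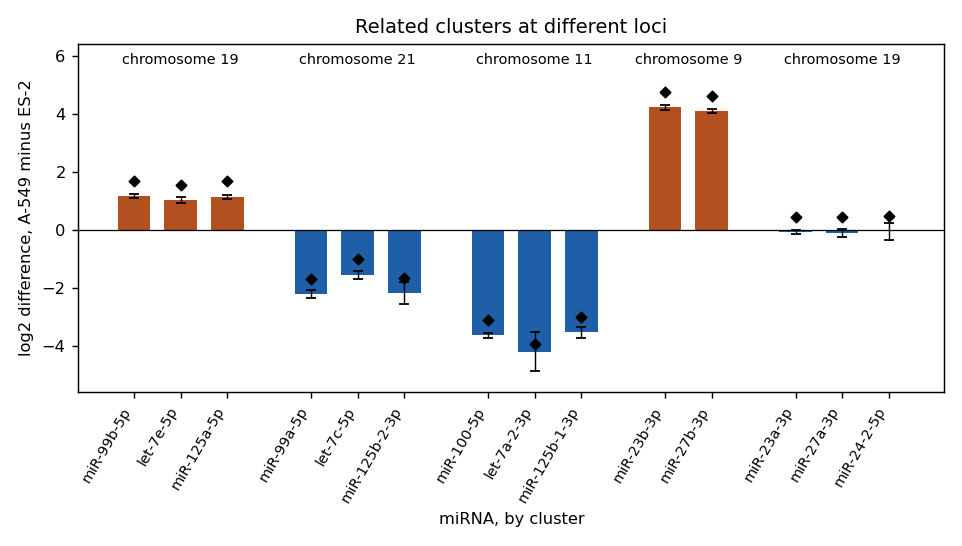
Log2 differences (A-549 minus ES-2) of miRNAs from related clusters, grouped by chromosome, with bars for the CPM scale, error bars for the standard error and diamonds for TMM factors. Bars of the first chromosome 19 cluster and of chromosome 9 point towards A-549 and those of chromosomes 21 and 11 towards ES-2, whereas those of the second chromosome 19 cluster are near 0 on CPM and above 0 with TMM factors.

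Genomic neighbours were compared in 28 clusters, with miRNAs from hairpins on the same strand and gaps of less than 10 kb. On the CPM scale 12 clusters held calls towards A-549 only, 13 towards ES-2 only and 2 in both directions, and 1 held none. In some a single miRNA decided this, as in the MIR23A cluster with 1 call among 5 miRNAs. Under 3 scalings 13 held calls towards A-549 only, 8 towards ES-2 only, 1 in both directions and 6 none. The first cluster with both directions on the CPM scale was the MIR450B to MIR424 cluster on the X chromosome (chrX:134540185-134546711). MiR-450b-5p (2.41 ± 0.27) and miR-450a-5p (2.37 ± 0.25) were higher in A-549 under 3 scalings. MiR-424-5p (-0.84 ± 0.18) and miR-503-5p (-1.03 ± 0.12) were higher in ES-2 on the CPM scale, whereas with miR-21-5p left out of the total neither passed the test and miR-424-5p was at 0.19. The call of miR-424-5p on the CPM scale was also lost without ES-2 library 1. Within libraries, miR-503-5p had 2.72 and 2.53 reads per read of miR-450a-5p in A-549 and 25.3 and 31.7 in ES-2. The other such cluster held MIR181B1 and MIR181A1 on chromosome 1 and is described with the arms. It was the one with both directions under 3 scalings. Its only call towards A-549 was miR-181b-5p, whose sequence is shared with a further hairpin, while both of its 3p arms compared were higher in ES-2. Opposite directions of neighbouring hairpins are therefore not shown here. The call of miR-181b-5p was also lost without any 1 of the 4 libraries.

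Summed by seed, 335 of the 365 miRNAs formed 274 seed groups, of which 216 (78.8%) differed on the CPM scale, 95 with higher levels in A-549 and 121 in ES-2, and 147 (53.6%) in the same direction under 3 scalings. Of these, 35 groups held at least 2 of the miRNAs compared, and in 3 of them miRNAs of a group were called in opposite directions. These were the groups of let-7 (GAGGUAG), miR-99 and miR-100 (ACCCGUA) and miR-125 (CCCUGAG), that is, the seeds of the related clusters above. Their sums still differed. The ACCCGUA group had 14193 and 13257 CPM in A-549 and 114470 and 113598 CPM in ES-2 (-3.06 ± 0.07), and the GAGGUAG group had 105583 and 121573 CPM and 200495 and 211786 CPM (-0.86 ± 0.08). The CCCUGAG group had 9830 and 9467 CPM in A-549 and 17050 and 16159 CPM in ES-2 (-0.78 ± 0.06). The first was higher in ES-2 under 3 scalings and the other 2 were not. In the AAUACUG group of miR-200b, miR-200c and miR-429, with 905 and 943 CPM in A-549 and 48.1 and 42.7 CPM in ES-2, the leading miRNA was miR-200b-3p in A-549 but miR-200c-3p in ES-2.

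The ratio of both arms of a hairpin was tested after adding 1 CPM to each arm. It depends on the scaling through this addition only, which matters most for arms with few reads. The ratio differed for 5 of 55 hairpins (9.09%), with 9 at an unadjusted p below 0.05 (limma). The more abundant arm was the same in both lines for each of the 55, namely 5p for 33 and 3p for 22. For miR-1307, from a single hairpin, the 5p arm took 2.51% and 2.62% of the reads of both arms in A-549 and 10.9% and 8.30% in ES-2 (log2 ratio difference -1.67 ± 0.33, adjusted p 0.0162). For miR-222, also from a single hairpin, it took a mean of 0.0910% in A-549 and 0.185% in ES-2 (-0.87 ± 0.19, adjusted p 0.0204). The 5p share was thus higher in both ES-2 libraries than in either A-549 library for both hairpins. The other 3, miR-181a, miR-181b and let-7a, come from several hairpins that share the 5p but not the 3p sequence, so that the ratio also depends on which hairpin is transcribed. The log2 ratio difference was 1.91 ± 0.37 for miR-181b and -1.08 ± 0.21 for let-7a. MiR-181a-5p took 98.4% and 97.7% in A-549 and 88.9% and 89.8% in ES-2 (2.57 ± 0.34, adjusted p 0.00500) relative to miR-181a-3p, which comes from MIR181A1 on chromosome 1. The 3p arm of MIR181A2 on chromosome 9 showed the opposite. MiR-181a-2-3p had 570.0 and 584 CPM in A-549 and 99.8 and 85.0 CPM in ES-2 (2.63 ± 0.13), against 24.7 and 37.9 CPM and 135 and 136 CPM of miR-181a-3p (-2.11 ± 0.30). The ratio of these 3p arms was 23.1 and 15.4 in A-549 and 0.738 and 0.625 in ES-2. The shared 5p arm differed less, with 1540.1 and 1607 CPM in A-549 and 1086 and 1198 CPM in ES-2 (0.46 ± 0.12). The miR-181 family as a whole, known from lymphocyte development, had 4 of 9 higher in A-549 and 2 of 9 higher in ES-2 on the CPM scale, beside 31.0% and 44.7% over all miRNAs, and 4 and 1 under 3 scalings. Of the 2 higher in ES-2 on the CPM scale, 1 (miR-181b-3p) had reached the level threshold in ES-2 only. Of the 4 higher in A-549, miR-181a-5p and miR-181b-5p lost their calls without either A-549 library or ES-2 library 1. MiR-181b-5p lost its call without ES-2 library 2 as well. Of the 2 higher in ES-2, miR-181b-3p lost its call without either A-549 library or ES-2 library 2. Depending on the library left out, 2 to 6 arm ratios passed the test. Of the 5 called, only that of miR-181a kept its call whichever library was left out. Those of let-7a and miR-181b lost theirs in some cases, and those of miR-1307 and miR-222 in most.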

How the data were processed

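The authors trimmed reads, aligned them to hg38 and counted them per miRNA (cutadapt 1.14, Bowtie2 2.3.2, SAMtools 1.5, featureCounts 1.5.3 and edgeR 3.30.3 in the submitters' processing notes). The deposited tables hold normalized signal values per miRNA row, for 1 further line as CPM, which the authors scaled between libraries. Dividing by the value of 1 read gave whole numbers (within 0.01) for each value, so reads were recovered, rows of 1 name were summed (39 of the 365 miRNAs had several rows), and libraries were rescaled to 1000000 reads. Log2(CPM + 1) values of A-549, ES-2 and MV3, a melanoma line prepared alike, were fitted with limma 3.58.1 (R 4.3.3) without a block, with A-549 against ES-2 as contrast. The pooled spread thus draws on 6 libraries (3 residual degrees of freedom). It was moderated over miRNAs with a trend on level (eBayes, 4.25 prior degrees of freedom). A miRNA was called at a Benjamini-Hochberg adjusted p under 0.05. The plan had assumed CPM for all tables, and the test stayed as planned. EdgeR 4.0.16 and DESeq2 1.42.0 on the recovered reads were alternatives. Seed groups and arm ratios were fitted alike. The fit was tested on simulated reads. Members and lists (34) were chosen with earlier results of these data known. Named miRNAs were the 10 most abundant per line, the 10 largest called, non-overlapping differences per direction at 100 CPM or more in the higher line, the 5 smallest at 1000 CPM or more in both, 2 to 4 of each list by mean level, the 5 largest called arm ratios, and the 2 nearest the threshold on each side. Loci are from RefSeq GRCh38.p14 and GENCODE v44, the build of the files.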

Additional observations from a re-analysis of the deposited data

How the results depend on the processing

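The count of 276 miRNAs was 238 to 297 under other scalings, tools, pseudocounts, samples in the fit and without the level filter, and 163 of 185 with a mean of at least 100 CPM (60 higher in A-549, 103 in ES-2). That filter also lowered the seed groups called to 123 and the chromosome 14 miRNAs to 21, since fewer were tested. Scaling moved the balance. MiRNAs higher in A-549 numbered 184 without miR-21-5p in the total, and those higher in ES-2 73, against 104 with TMM factors (limma and edgeR) and 98 with DESeq2. The median log2 difference of -0.36 became 0.15 with TMM factors, 0.65 without miR-21-5p, 0.17 with edgeR and 0.28 with DESeq2. Arm ratios called rose from 5 to 13 of 138 when both arms only had to sum to 10 CPM. Leaving out 1 library in turn gave 238 to 241 miRNAs, 96 to 107 higher in A-549, 132 to 144 higher in ES-2, medians of -0.39 to -0.35, 187 to 194 seed groups, 2 to 6 arm ratios and 45 to 46 chromosome 14 miRNAs. The 2 arm ratios were without A-549 library 2 and without ES-2 library 2.

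The replicate block gave 274 calls (114 higher in A-549, 160 in ES-2). Libraries of the same number did not deviate together over the miRNAs (correlations 0.017, 0.0016 and -0.029). These values cannot show whether libraries of the same number were grown or prepared together. With the block let-7b-5p (-0.21) passed the test on the CPM scale, as it also did in the other direction without miR-21-5p and with DESeq2.

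The 37 miRNAs named as the most abundant or for the largest or smallest differences were followed through the alternatives. MiRNAs named from lists, arms or the threshold only are not among them. Of the 37, 28 kept direction and call in every alternative in which they were tested, and miR-21-5p was not tested without miR-21-5p in the total. The other 9 changed with the scaling. With TMM factors, without miR-21-5p, with edgeR and with DESeq2, in this order, their differences were 0.21, 0.71, 0.21 and 0.33 for let-7i-5p, 0.25, 0.75, 0.25 and 0.37 for let-7f-5p, 0.44, 0.94, 0.43 and 0.55 for miR-23a-3p, 0.17, 0.67, 0.17 and 0.28 for miR-30d-5p, 0.42, 0.92, 0.43 and 0.54 for miR-27a-3p, 0.33, 0.83, 0.35 and 0.46 for miR-320a and 0.32, 0.82, 0.31 and 0.44 for let-7b-5p. MiR-30a-5p (-0.72) reversed without miR-21-5p (0.31) and lost its call with TMM factors (-0.19), edgeR (-0.19) and DESeq2 (-0.075), and miR-183-5p (0.08) passed the test under the same 4. With 11 libraries in the fit miR-30a-5p, let-7i-5p and let-7f-5p lost their calls. Leaving out 1 library in turn, miR-27a-3p ranged from -0.30 to 0.077 (above 0 without A-549 library 2), let-7f-5p from -0.40 to -0.16 and miR-320a from -0.42 to 0.022 (above 0 without A-549 library 1). MiRNAs with few reads in 1 line have no exact fold, and absolute amounts per cell cannot be read from shares of reads.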
